A study of Homo sapiens with 2 samples.

Results

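The genes described here encode the eukaryotic translation initiation factors (eIFs), the 4 kinases of eIF2 and the 2 regulatory subunits of the eIF2 phosphatase. Members were taken by symbol, as every gene symbol starting with EIF and a digit from 1 to 6, plus PPP1R15A and PPP1R15B. Antisense and read-through symbols with a hyphen and symbols ending in P and a digit were left out. This gave 54 of the 25268 listed genes, and 49 of the 54 had a mean of at least 1 FPKM over the 2 libraries and were treated as measured. FPKM is the number of fragments scaled by transcript length and library size. The symbol rule also leaves out the 3 eIF4E-binding proteins, which are described separately as genes outside the family.

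The cells were C4-2B MDVR, an established castration-resistant prostate cancer line that resists the antiandrogen enzalutamide. Both groups were grown in serum-containing medium with 20 µM enzalutamide, and were kept for 3 days with either the vehicle DMSO or 20 µM Indocin. Indocin is indomethacin, a cyclooxygenase inhibitor that also inhibits the androgen-synthesis enzyme AKR1C3. Each group was 1 library of 1 cell line, so the differences below have no replicate check, no error across cultures and no p-value. In bulk RNA, fewer cells of a kind and less RNA per cell cannot be told apart.

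Initiation begins when eIF2, carrying GTP and the initiator tRNA, joins the small ribosomal subunit together with eIF1, eIF1A, eIF3 and eIF5. The eIF4F complex, made of the cap-binding protein eIF4E, the scaffold eIF4G and the helicase eIF4A, recruits that assembly to the capped end of a messenger RNA. Control acts mainly at 2 points, both through protein phosphorylation. Stress kinases phosphorylate the eIF2 alpha subunit, which then blocks its exchange factor eIF2B, slows general initiation and favours translation of ATF4. The kinase complex mTORC1 frees eIF4E from its binding proteins. The files hold RNA levels, so neither phosphorylation nor translation was measured.

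Read depth was unknown. Low values were examined for 1335 genes with a mean under 0.05 FPKM and a value in both libraries. Their Indocin to DMSO quotients were compared with ratios of small whole numbers. With 1 fragment of the Indocin library taken as worth 1.014 times 1 of the DMSO library, 45.5% matched within 1%. That factor was picked as the one matching most genes, and the median over the factors tried was 2.55%. All 8 prostate luminal markers examined lay between 71.7 and 520.3 FPKM with DMSO and between 58.1 and 335 FPKM with Indocin. Of the markers of other cells, COL1A2, DCN, CD3E and PECAM1 were listed at 0 in both libraries and PTPRC at no more than 0.0233 FPKM. COL1A1 stood at 4.54 and 4.80 FPKM, VWF at 0.395 and 0.652 FPKM, and of the neuroendocrine markers ENO2 at 33.1 and 31.7 FPKM, with CHGA and SYP under 1 FPKM in both.

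Of the 49 measured members, 0 were 1.5-fold higher in the Indocin library and 0 were 1.5-fold lower. Among 11958 tested genes the shares were 2.2% and 0.744%. With shares this small, few or no genes would be expected among 49, so nothing is read from the counts of 0. Tested genes were also lower in level, with 5161 at a mean of 1 to 10 FPKM, where 6 members lay. Fold differences were counted by the log2 ratio, log2((Indocin FPKM + 1)/(DMSO FPKM + 1)), which is the ratio quoted throughout and which makes the fold of low genes look smaller. At a smaller threshold of 0.32 on the log2 scale, EIF2S2 and EIF1 were higher, as were 6.92% of tested genes, and EIF3B was lower, as were 7.29%. Of the 49, 29 had ratios below 0 and 20 above, against 55.2% of tested genes below 0. The median was -0.06, against -0.03 over all tested genes. Over tested genes of like level the median depended on the level: it was 0.03 for genes with a mean of 1 to 10 FPKM (6 members), -0.04 for 10 to 30 FPKM (7 members), -0.09 for 30 to 100 FPKM (15 members), -0.08 for 100 to 300 FPKM (14 members) and -0.04 from 300 FPKM up (7 members). Summed over all members, FPKM was 6972 with DMSO and 6669 with Indocin, 1.22% and 1.20% of the total outside short RNA genes and BCYRN1.

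Levels of the measured members spanned a wide range, the highest being 430.1 times the lowest with DMSO and 306 times with Indocin. The highest member in both libraries was the helicase EIF4A1, at 1067 and 903 FPKM, and the lowest measured one was PPP1R15A, at 2.48 and 2.95 FPKM. Ratios of 47 of the 49 members lay within the middle 90% of tested genes of like level. The 2 outside it were EIF1 and EIF2S2, both on the higher side. EIF2S2 was only just outside, at 0.46 against an upper limit of 0.44, and EIF1 stood at 0.36 against 0.12. Some genes lie outside such a range by construction, so nothing is read from the count of 2. Between the quartiles of tested genes of like level, a narrower range, lay 18 of the 49. Quartiles leave out a large part of tested genes by construction, so nothing is read from this count either. The 5 members under 1 FPKM were EIF3C, EIF3CL, EIF4E1B, EIF5AL1 and EIF1AY, and the values of the last, a Y-linked gene, are not given.

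**Figure D1:**
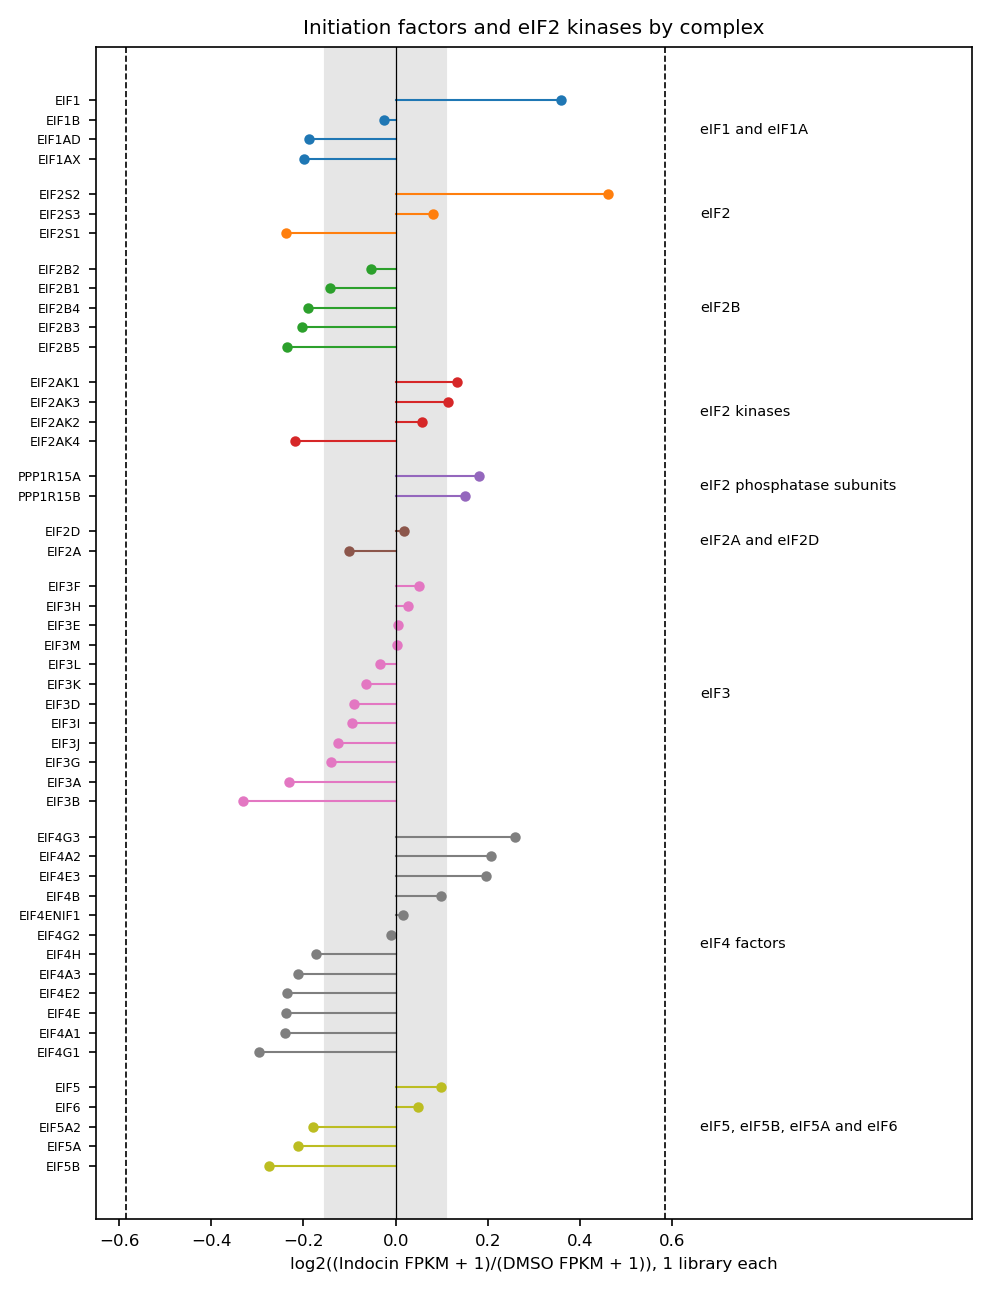
Log2 ratio of Indocin over DMSO FPKM, each plus 1, for the 49 measured members, 1 point per gene with 1 library per group, ordered within each complex. The grey band spans the quartiles of all tested genes (-0.15 to 0.11), the dashed lines mark 1.5-fold, and every member lies between those lines, with EIF2S2 (0.46) highest and EIF3B (-0.33) lowest.

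**Figure D2:**
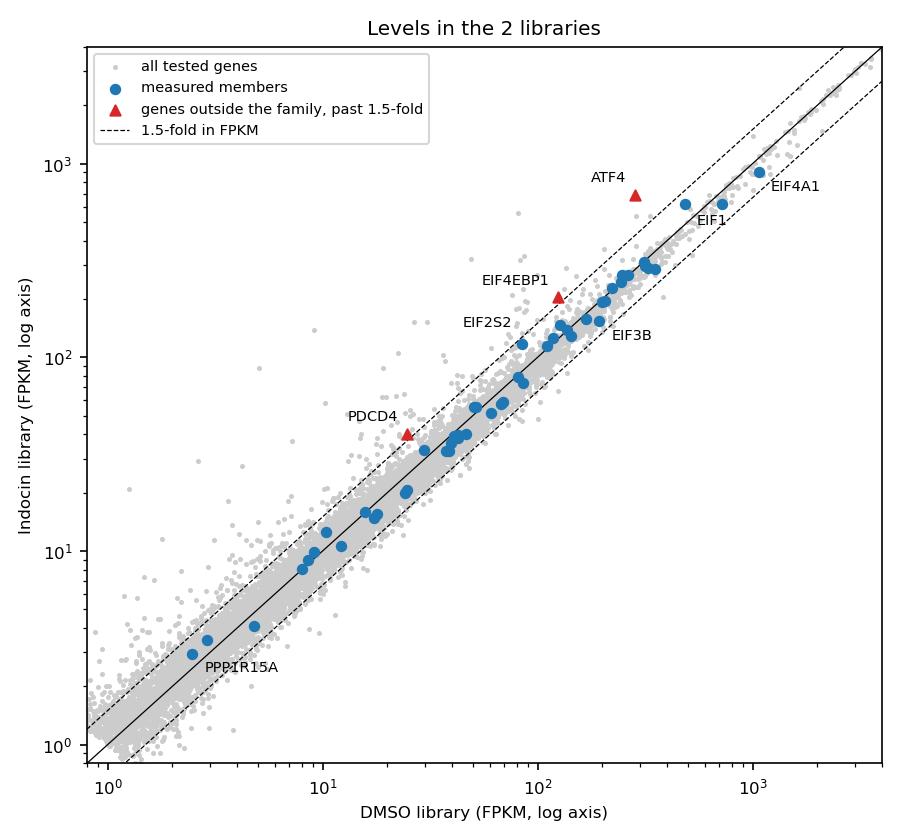
FPKM in the Indocin library against FPKM in the DMSO library on log axes, with all tested genes in grey, the 49 measured members in blue and 3 translation-control genes outside the family in red. The solid line marks equal FPKM and the dashed lines 1.5-fold in FPKM; the blue points lie between the dashed lines, and ATF4, EIF4EBP1 and PDCD4 lie above the upper one.

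The 3 subunits of eIF2, which brings the initiator tRNA, did not differ in parallel. EIF2S2, the beta subunit, stood at 84.9 FPKM with DMSO and 117 FPKM with Indocin, a log2 ratio of 0.46 and the highest of the family. EIF2S1, the alpha subunit that carries the regulatory phosphorylation, stood at 61.0 and 51.6 FPKM (-0.24). EIF2S3, the GTP-binding gamma subunit, stood at 118 and 125 FPKM (0.08). EIF2S2 was thus the higher and EIF2S1 the lower of the subunits in its difference, on opposite sides of 0. FPKM is scaled by length, so levels were set against each other, although how reads were assigned to each gene was not tested. EIF2S2 was 1.39 times EIF2S1 with DMSO and 2.27 times with Indocin, and EIF2S3 was 1.94 and 2.43 times EIF2S1. Of all tested genes, 96.5% had a lower ratio than EIF2S2 and 13.8% a lower ratio than EIF2S1.

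All 5 subunits of eIF2B, the guanine nucleotide exchange factor that recharges eIF2, had ratios below 0, as did 55.2% of tested genes. The catalytic epsilon subunit EIF2B5 stood at 38.6 FPKM with DMSO and 32.7 FPKM with Indocin (-0.24), and its catalytic partner, the gamma subunit EIF2B3, at 18.0 and 15.5 FPKM (-0.20). The regulatory subunits stood at 37.4 and 32.6 FPKM for EIF2B4 (-0.19), 42.4 and 38.3 FPKM for EIF2B1 (-0.14), and 40.7 and 39.1 FPKM for EIF2B2 (-0.05). The differences were small, with a median of -0.19 against -0.09 over tested genes with a mean of 30 to 100 FPKM, where 4 of the 5 lie, and EIF2B2 changed sign, to 0.02, after scaling to the same upper quartile. Within each library, EIF2B3 was the lowest of the 5, and the highest exceeded it 2.36 times with DMSO and 2.53 times with Indocin.

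The 4 eIF2 kinases sense different stresses and kept the same order of level in both libraries. EIF2AK1, the heme-regulated kinase HRI, which also relays mitochondrial stress, was the highest at 50.4 FPKM with DMSO and 55.3 FPKM with Indocin (0.13). EIF2AK4, or GCN2, which responds to uncharged tRNA, followed at 17.3 and 14.8 FPKM (-0.22). EIF2AK3, or PERK, the kinase of the endoplasmic reticulum, stood at 9.08 and 9.91 FPKM (0.11). EIF2AK2, the kinase PKR that binds double-stranded RNA and is induced by interferon, stood at 8.59 and 8.98 FPKM (0.06). Of these ratios that of GCN2 was the only one below 0, and the others were slightly above. EIF2AK1 held 59.0% of the summed FPKM of the kinases with DMSO and 62.2% with Indocin, while the share of EIF2AK4 was 20.3% and 16.6%.

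PPP1R15A, known as GADD34, and PPP1R15B, known as CReP, direct protein phosphatase 1 to phosphorylated eIF2. PPP1R15A is the stress-induced subunit and a known target of ATF4, and PPP1R15B is the constitutive one. PPP1R15A stood at 2.48 FPKM with DMSO and 2.95 FPKM with Indocin (0.18), and PPP1R15B at 29.7 and 33.1 FPKM (0.15). Both were slightly higher in the Indocin library. At the low level of PPP1R15A its ratio depended on the pseudocount, at 0.24 with 0.1 FPKM and 0.09 with 5 FPKM, against 0.15 and 0.13 for PPP1R15B, so the order of the pair was not fixed. In FPKM, PPP1R15A made up 7.71% and 8.19% of the summed FPKM of the pair. ATF4 itself, a gene outside the family, stood at 283.9 and 689 FPKM (1.28). The ratio of the inducible phosphatase subunit was thus far below that of ATF4.

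The ratio was 1.28 for ATF4 and 0.18 for its target PPP1R15A, and 83.4% of tested genes had a lower ratio than PPP1R15A. Whether promoter sequence bears on that gap was not tested. Sequence was taken from RefSeq (GRCh38.p14, a different build from that named for the deposited files). Chosen with those ratios known, the 250 bases before the annotated start of both phosphatase genes are shown. They were searched on both strands for TGATGNAA, the core of the element bound by C/EBP and ATF4 dimers, and for TGACGTCA, the cyclic AMP response element bound by ATF and CREB proteins; the 2 motifs do not overlap in these windows. Capitals mark the match. The PPP1R15A window lies at chr19:48872171-48872420 on the plus strand and holds TGACGTCA from 58 to 51 bases before the start. The PPP1R15B window lies at chr1:204411818-204412067 on the minus strand and holds TGATGCAA, a form of TGATGNAA, from 227 to 220 bases before the start.
PPP1R15A: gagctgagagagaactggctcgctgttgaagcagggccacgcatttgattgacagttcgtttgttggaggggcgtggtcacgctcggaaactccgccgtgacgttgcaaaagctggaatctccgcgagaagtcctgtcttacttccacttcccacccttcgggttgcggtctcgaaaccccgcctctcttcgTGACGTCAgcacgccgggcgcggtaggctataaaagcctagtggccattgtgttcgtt
PPP1R15B: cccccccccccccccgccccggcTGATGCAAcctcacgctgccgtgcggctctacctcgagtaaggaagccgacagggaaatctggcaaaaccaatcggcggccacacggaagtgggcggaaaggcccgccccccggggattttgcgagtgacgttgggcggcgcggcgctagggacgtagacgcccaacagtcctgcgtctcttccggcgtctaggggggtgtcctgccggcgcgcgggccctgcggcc
A window was found for 46 of the 54 members; EIF2S2, EIF2AK1, EIF3A, EIF3CL, EIF3E, EIF3G, EIF3H and EIF3L had none. TGATGNAA occurred in 2 of the 46, PPP1R15B and EIF4E3, against 3.89% of all 27305 genes with windows and 2.14% of 9585 tested genes with windows. TGACGTCA occurred in PPP1R15A alone of the 46, against 2.03% and 3.58%. A match describes the letters only, and these windows say nothing of binding.

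EIF1, EIF1A and their relatives set how strictly the start codon is chosen. EIF1, which opposes initiation at poor start sites, stood at 482.8 FPKM with DMSO and 619.6 FPKM with Indocin (0.36), the second highest ratio of the family. For the 236 tested genes whose mean reached 300 FPKM, the middle 90% of ratios ran from -0.35 to 0.12, and EIF1 lay above that range. Its close copy EIF1B stood at 81.0 and 79.5 FPKM (-0.03), so the pair differed in direction, although EIF1B was above 0 after scaling to the same upper quartile or sum. EIF1AX, the X-linked gene of eIF1A, stood at 46.4 and 40.3 FPKM (-0.20), and EIF1AD, a nuclear protein with an eIF1A-like domain, at 12.2 and 10.6 FPKM (-0.19). EIF5, the GTPase activator whose protein counteracts eIF1 in start site selection, stood at 51.6 and 55.3 FPKM (0.10). EIF1 was 9.36 times EIF5 with DMSO and 11.2 times with Indocin.

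EIF2A and EIF2D are factors apart from eIF2 that can handle initiator tRNA or act after termination, and both were close to 0. EIF2A stood at 42.4 and 39.5 FPKM (-0.10) and EIF2D at 15.7 and 15.9 FPKM (0.02).

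The eIF3 complex is the large scaffold that holds the initiation assembly on the small subunit. Its 12 measured subunits had a median ratio of -0.08, as did tested genes with a mean of 100 to 300 FPKM, where most subunits lie. Of the 12, 8 were below 0 and 4 above, and 55.2% of tested genes were below 0. Within 0.1 of 0 lay 8 of the 12, against 4738 of 11958 tested genes. After scaling to the same upper quartile EIF3K and EIF3L moved to just above 0. The 3 lowest were EIF3B at 194 FPKM with DMSO and 154 FPKM with Indocin (-0.33), EIF3A at 67.4 and 57.2 FPKM (-0.23) and EIF3G at 142.8 and 129 FPKM (-0.14). EIF3A encodes the largest subunit, and EIF3B, EIF3G and EIF3I encode a module near the mRNA entry channel of the ribosome. EIF3I stood at 314 and 294 FPKM (-0.09) and was the highest of the 12 in level. The 3 highest ratios belonged to EIF3F at 221 and 228 FPKM (0.05), EIF3H at 262 and 267 FPKM (0.03) and EIF3E at 244 FPKM in both (0.00). EIF3M stood at 138 FPKM in both libraries (0.00). The remaining subunits lay between: EIF3L had a ratio of -0.03, EIF3K of -0.06, the cap-contacting EIF3D of -0.09 and the loosely bound EIF3J of -0.12. EIF3J was the lowest in level, at 39.6 and 36.3 FPKM, and the highest subunit exceeded it 7.93 times with DMSO and 8.12 times with Indocin.

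EIF3C could not be measured. It encodes a core subunit of eIF3 but was listed at 0.0722 FPKM with DMSO and 0.0799 FPKM with Indocin, and its near-identical copy EIF3CL at 0.000180 and 0.000262 FPKM. All other subunits were above 36 FPKM in both libraries. How reads that match both copies were assigned was not tested, and these values do not show that the subunit is absent. Summing the pair left it under 1 FPKM.

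The main genes of the cap-binding complex eIF4F were slightly lower in the Indocin library, and the minor forms of its helicase and scaffold were slightly higher. EIF4E, the cap-binding protein, stood at 24.6 FPKM with DMSO and 20.7 FPKM with Indocin (-0.24). EIF4G1, the main scaffold, stood at 351 and 285 FPKM (-0.30), and EIF4A1, the main helicase, at 1067 and 903 FPKM (-0.24). These 3 ratios were close together, so EIF4A1 remained 43.3 and 43.6 times EIF4E in FPKM, and EIF4G1 14.3 and 13.8 times. EIF4G3, the second scaffold, stood at 10.4 and 12.6 FPKM (0.26), and EIF4A2, the second helicase, at 127 and 147 FPKM (0.21). EIF4A1 made up 89.3% of the summed FPKM of the helicase pair with DMSO and 86.0% with Indocin, and EIF4G1 made up 97.1% and 95.8% of the scaffold pair. The read-through transcript SENP3-EIF4A1, which shares sequence with EIF4A1, was listed separately at 0.923 and 0.253 FPKM.

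Other eIF4 genes showed no common direction. The helicase cofactors EIF4B and EIF4H stood at 248 and 265 FPKM (0.10) and at 326 and 289.6 FPKM (-0.17). EIF4E2, a cap-binding relative that represses translation, stood at 69.0 and 58.5 FPKM (-0.24), and EIF4E3 at 2.90 and 3.47 FPKM (0.20). EIF4E1B was listed at 0.0261 and 0.0393 FPKM. EIF4G2, also called DAP5, a scaffold without the eIF4E-binding site, stood at 311 and 309 FPKM (-0.01). The eIF4E transporter EIF4ENIF1 stood at 7.98 and 8.07 FPKM (0.02), and EIF4A3, a helicase of the exon junction complex, at 85.3 and 73.5 FPKM (-0.21).

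Late-acting factors were likewise close to 0 or slightly lower. EIF5B, the GTPase that joins the large ribosomal subunit, stood at 24.2 FPKM with DMSO and 19.9 FPKM with Indocin (-0.27). EIF5A, the hypusine-bearing factor that relieves stalled ribosomes, stood at 718 and 619.7 FPKM (-0.21), and its relative EIF5A2 at 4.77 and 4.10 FPKM (-0.18). EIF5A held 99.3% of the summed FPKM of that pair in both libraries, and the copy EIF5AL1, which can share its reads, was listed at 0.248 and 0.158 FPKM. EIF6, which keeps free large subunits from joining, stood at 111 and 115 FPKM (0.05).

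Of 33 genes outside the family that act in or control translation, all of them measured, 30 lay within 1.5-fold. The other 3 were higher in the Indocin library and 0 were lower; the list was drawn up with earlier results of these data known, so nothing is read from its count beside the 2.2% of tested genes. The median of the 33 was -0.01, with 15 ratios above 0 and 18 below. EIF4EBP1, which binds and blocks eIF4E when mTORC1 is inactive and is a known ATF4 target, stood at 124 FPKM with DMSO and 204 FPKM with Indocin (0.71). PDCD4, which binds and blocks the eIF4A helicase, stood at 24.6 and 40.2 FPKM (0.69). ATF4 was the third. The other eIF4E-binding proteins stood at 35.5 and 35.1 FPKM for EIF4EBP2 (-0.01) and 38.6 and 45.1 FPKM for EIF4EBP3 (0.22), and the latter shares sequence with the separately listed read-through transcript ANKHD1-EIF4EBP3 (6.02 and 6.43 FPKM).

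The levels of these inhibitors can be set beside those of their partners, although the inhibitors were already known to be higher and the partners lower, which fixes the direction of each quotient. EIF4EBP1 was 5.05 times EIF4E in FPKM with DMSO and 9.83 times with Indocin, a log2 difference of 0.96 in the quotient. The 3 eIF4E-binding proteins together were 8.06 and 13.7 times EIF4E. PDCD4 amounted to 2.31% of EIF4A1 in FPKM with DMSO and 4.45% with Indocin. A quotient of 2 genes in 1 library does not depend on how the libraries were scaled, but it also has no replicate check here, and RNA quotients are not protein quotients.

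**Figure D3:**
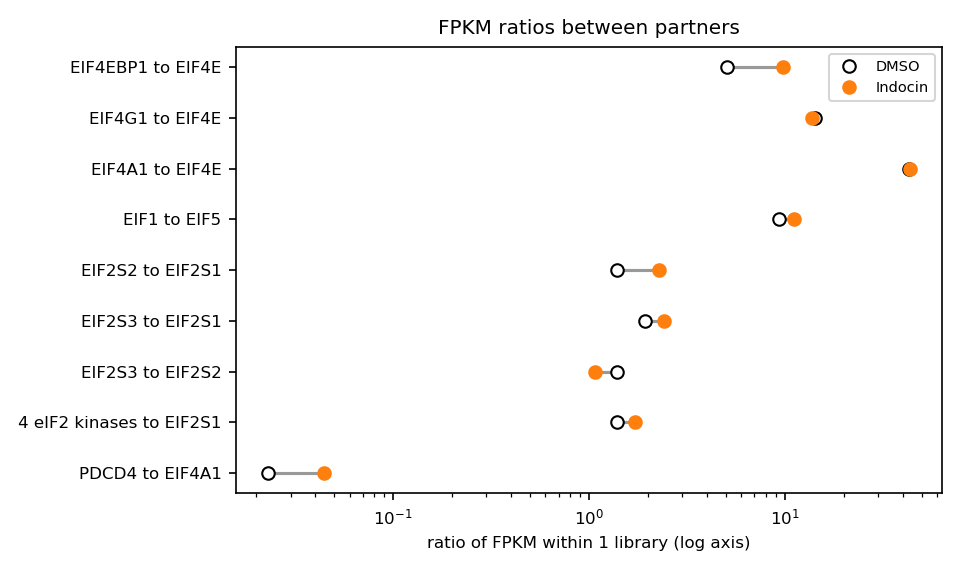
Quotient of the FPKM of 2 genes, or of the summed eIF2 kinases and EIF2S1, within each library on a log axis, with open circles for the DMSO library and filled circles for the Indocin library. The quotients of EIF4EBP1 to EIF4E (5.05 and 9.83), PDCD4 to EIF4A1 (0.0231 and 0.0445) and EIF2S2 to EIF2S1 (1.39 and 2.27) lie further apart than those of EIF4G1 or EIF4A1 to EIF4E. Each quotient restates the FPKM values already given for its genes.

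Among the 30 translation-control genes within 1.5-fold, IMPACT, an inhibitor of GCN2 activation, had a ratio of 0.34 and GCN1L1, the GCN2 activator, of -0.21. Among 12 genes of the mTORC1 arm 7 were above 0 and 5 below, from RPS6KB2 (-0.28) to PDCD4. All 5 genes of scanning, reinitiation and recycling were below 0 as deposited, as were 55.2% of tested genes, 3 of the 5 by less than 0.1, the lowest being the ribosome recycling ATPase ABCE1 (-0.32), and of the 5 poly(A)-binding genes the lowest was PABPC4 (-0.33). The 8 elongation factors, 4 above 0 and 4 below, ranged from -0.15 for EEF1A2 to 0.12 for EEF2. The release factors ETF1 (-0.05), GSPT1 (-0.17) and GSPT2 (0.00) and the mitochondrial initiation factors MTIF2 (-0.01) and MTIF3 (0.12) were also close to 0.

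The members differ in a sequence feature at their first transcribed bases. Many messenger RNAs of the translation machinery start with a C followed by an unbroken run of pyrimidines, the terminal oligopyrimidine tract, through which mTORC1 and LARP1 control their translation and stability. The tract was read from the annotated RefSeq start (GRCh38.p14) as a C and pyrimidines for at least 5 bases in all, at any start where a gene had several, and was examined after the ratios had been seen. It was present in 9 of the 42 measured members with a window (21.4%), against 7.53% of tested genes with windows. Capitals mark the tract in the first 20 bases, and the 9 are shown because they carry the grouping described next.
EIF2S3: CTCTTTTggcaacatggcgg
EIF2A: CTCTTTCCgggacaacatgg
EIF2D: CCTTTTCgcggccgggcccc
EIF3D: CTCTTTTCCTggtttctcaa
EIF3F: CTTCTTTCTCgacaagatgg
EIF3K: CTCTTCCTgttcccgtcctt
EIF3M: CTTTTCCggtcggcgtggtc
EIF4A2: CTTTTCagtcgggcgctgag
EIF4B: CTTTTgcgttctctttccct
On the plus strand these bases lie at chrX:24054956-24054975 for EIF2S3, chr3:150546787-150546806 for EIF2A, chr11:7987337-7987356 for EIF3F, chr19:38619188-38619207 for EIF3K, chr11:32583831-32583850 for EIF3M, chr3:186783577-186783596 for EIF4A2 and chr12:53006456-53006475 for EIF4B. On the minus strand they lie at chr1:206612446-206612465 for EIF2D and chr22:36529147-36529166 for EIF3D.

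Those 9 members had a median ratio of 0.02, from -0.10 for EIF2A to 0.21 for EIF4A2, with 6 above 0 and 3 below. The 33 measured members with another start had a median of -0.17, from -0.33 for EIF3B to 0.36 for EIF1, with 10 above 0 and 23 below. The range of the 9 lay wholly inside that of the 33. Among tested genes, 53.0% of those with the tract and 56.0% of those without were below 0. Measured members without a window are in neither class, among them EIF2S2, which had the highest ratio of the family (0.46). The helicase pair falls on both sides: EIF4A2 begins with the tract and had a ratio of 0.21, and EIF4A1, whose run from its annotated start is 3 bases, had a ratio of -0.24. The scaffold pair split as widely with the tract in neither gene, at -0.30 for EIF4G1 and 0.26 for EIF4G3. Whether the tract bears on the split of either pair was not tested. Across all tested genes the same split showed almost nothing, with medians of -0.01 for 722 genes with the tract and -0.03 for 8863 without. Annotated starts can differ from those used in these cells, and no start was mapped here.

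**Figure D4:**
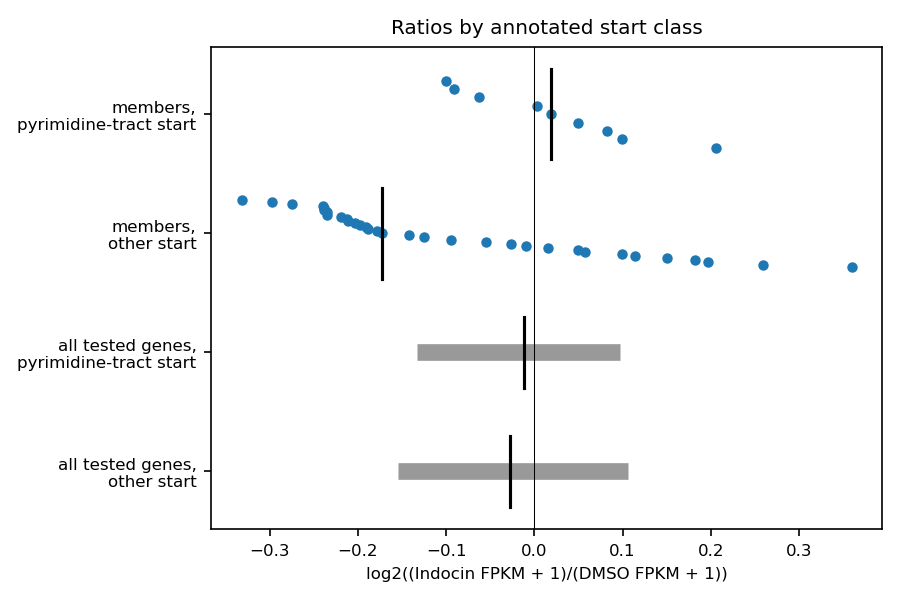
Log2 ratios of Indocin over DMSO FPKM, each plus 1, by whether the annotated start holds a pyrimidine tract. Blue points are the 42 measured members with a window (spread vertically for display only), so EIF2S2 is not shown. Grey bars are the quartiles of all tested genes with a window and black lines are medians. Members with the tract (median 0.02) lie to the right of most other members (median -0.17), while both bars for all tested genes nearly coincide (medians -0.01 and -0.03).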

How the data were processed

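Each library had 1 deposited table, which gave an FPKM and a status for every symbol, per the file headers. Libraries were made with the KAPA Stranded mRNA-Seq kit from TRIzol RNA, per the labels' protocols. TopHat, Cufflinks, Cuffnorm, StringTie and bcl2fastq are listed in the submitters' processing notes, with hg19 and GRCh37 as builds. The annotation, the use of strand and the role and version of each tool were not given in the sources used here.

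Log2 ratios used a pseudocount of 1 FPKM, and genes entered with a mean of at least 1 FPKM. Short RNA genes, 2069 by the start of their symbol, were left out of the tested genes. With 1 library per group no test was run. The calculation was tested on simulated data (Python 3.11.15, pandas 2.3.3). The members and lists were chosen with earlier results of these data known. Every measured member was named except where a range is given, and of genes outside the family those past 1.5-fold, ATF4, the eIF4E-binding proteins and the ends of each list were named, the ends after their values were seen. Promoter windows were matched by current or older symbol for 80.2% of tested genes.

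Ratios were recomputed with a pseudocount of 0.1 or 5 FPKM, without the filter or with a minimum mean of 5 FPKM, after median centring, after scaling the Indocin library to the DMSO upper quartile or sum, with near-identical copies summed, and with thresholds of 2-fold and of 0.32 on the log2 scale.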

Additional observations from a re-analysis of the deposited data

How the results depend on the processing

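No member passed 1.5-fold in either direction under any pseudocount, filter, scaling or summing of copies tried, or 2-fold. With a threshold of 0.32 on the log2 scale and values as deposited, 2 members were higher and 1 was lower. That count depended on the scaling. EIF3B fell short of the threshold at -0.31 after median centring, -0.29 with the same sum and -0.26 with the same upper quartile. EIF4G3 passed it on the higher side with the same upper quartile, at 0.33. The median ratio of the measured members ranged from -0.08 to 0.01 over these settings and that of the 33 translation-control genes from -0.02 to 0.06. The sign of the family median is therefore not fixed: it was above 0 with the same upper quartile, where 25 members were above 0 and 24 below, against 20 and 29 as deposited. Scaling to the same upper quartile turned 5 members from below to above 0 and scaling to the same sum 3, and the furthest from 0 of these, EIF3K, stood at -0.06 as deposited. EIF2S2 was the highest and EIF3B the lowest member under every setting. With a pyrimidine run of at least 4 or 6 bases, settings added after seeing the data, the median of members with the tract was 0.02 over 9 members and 0.01 over 8. Leaving out Argonaute genes listed under older EIF2C symbols was planned and was not run, since 0 such symbols were members. No paired analysis was possible because each group had 1 library. Read depth was unknown, so no counting error could be given for any FPKM, and differences of the size seen here could not be told from the variation between cultures.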
